A study of Mus musculus with 5 samples.

Results

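The cells described here are F2, 1 of 4 subclusters into which the authors divided the fibroblasts of foreign body granulomas in mice. They were taken as every cell that the authors' deposited table of cells names F2, and they number 1203 of 41191 cells in all, 1203 of 32152 granuloma cells and 1203 of the 4631 cells named F1 to F4. F2 held 58 cells in silk at 4 weeks, 457 in silk at 2 weeks, 374 in sponge at 4 weeks and 314 in sponge at 2 weeks, and none in the library of macrophages elicited with thioglycollate. Values of the 4 libraries are given in that order throughout. Each library holds cells of granulomas that formed around silk or around a sponge, profiled with a droplet-based 3' kit. The labels give no strain, genotype or age, and no number of mice. Each combination of material and time has 1 library and no replicate. No test between groups was run and no p-value was computed: a fit of material and time would have 1 degree of freedom left over, and the subclusters were defined from the genes compared. Every interval below is a 95% interval for counting error only.

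Fibroblasts make and remodel the collagen-rich matrix that walls off a foreign body. In healthy connective tissue, a progenitor-like state marked by Pi16 and Dpp4 and complement-producing states are known, while in wounds fibroblasts can take on contractile proteins such as smooth muscle actin (Acta2) and are then called myofibroblasts. Fibroblasts also feed and call in leukocytes, through chemokines for neutrophils and through growth factors of the macrophage and osteoclast lineage. Type I interferons act on nearly every cell through STAT factors that bind an interferon-stimulated response element in promoters of target genes. Genes of cholesterol synthesis are known targets of SREBP2, which binds sterol response elements.

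The interferon-stimulated genes and the genes of cholesterol synthesis described below are known to be driven through short promoter elements, so 4 promoters are shown with the motif in capitals. They are RefSeq promoters of GRCm38.p6, from 250 bases before to 50 bases after the transcription start, printed 5' to 3' in the direction of the gene. The capitals mark TTTCNNTTT, a core of the interferon-stimulated response element, in Isg15, Ifit1 and Ifit3, and TCACNCCAC, a sterol response element core, in Hmgcs1. Both strands were searched. In Isg15 the 3 matches overlap and lie on the opposite strand.
Isg15, chr4:156200769-156201068, minus strand: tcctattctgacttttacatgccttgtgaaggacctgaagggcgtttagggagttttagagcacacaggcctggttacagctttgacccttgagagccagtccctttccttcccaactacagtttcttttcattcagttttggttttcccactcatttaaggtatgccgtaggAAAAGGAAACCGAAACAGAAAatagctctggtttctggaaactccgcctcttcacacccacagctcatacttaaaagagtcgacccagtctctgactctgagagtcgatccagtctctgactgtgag
Ifit1, chr19:34640639-34640938, plus strand: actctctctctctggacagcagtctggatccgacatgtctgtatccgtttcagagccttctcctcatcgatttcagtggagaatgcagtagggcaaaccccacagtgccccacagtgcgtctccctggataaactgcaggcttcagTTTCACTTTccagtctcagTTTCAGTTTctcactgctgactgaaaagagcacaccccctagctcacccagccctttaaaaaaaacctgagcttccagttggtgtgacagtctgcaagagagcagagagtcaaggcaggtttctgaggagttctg
Ifit3, chr19:34583279-34583578, plus strand: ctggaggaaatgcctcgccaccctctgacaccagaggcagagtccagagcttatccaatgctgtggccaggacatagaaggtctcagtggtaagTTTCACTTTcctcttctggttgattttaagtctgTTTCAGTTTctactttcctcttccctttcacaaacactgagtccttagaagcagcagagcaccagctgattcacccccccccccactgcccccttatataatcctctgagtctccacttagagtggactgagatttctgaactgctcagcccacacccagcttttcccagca
Hmgcs1, chr13:119690101-119690400, plus strand: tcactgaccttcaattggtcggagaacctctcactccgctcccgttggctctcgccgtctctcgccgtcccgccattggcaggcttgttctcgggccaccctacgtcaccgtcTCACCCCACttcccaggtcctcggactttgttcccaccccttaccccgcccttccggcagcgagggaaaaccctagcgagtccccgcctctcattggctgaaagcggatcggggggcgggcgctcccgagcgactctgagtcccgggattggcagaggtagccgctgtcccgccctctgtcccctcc
The interferon motif was found in 12 of 17 promoters of 16 of the 23 listed interferon genes (70.6%), against 3466 of 32851 promoters of all genes (10.6%), and in 0 of 14 promoters of cholesterol genes. The sterol motif was found in 1 of 14 promoters of 12 of the 19 listed cholesterol genes (7.14%), that of Hmgcs1, against 408 of 32851 (1.24%). A match describes these letters and does not show binding.

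F2 cells carried the fibroblast identity. All 10 fibroblast markers were detected, and their summed level was 67590, 61110, 64750 and 70610 CPM (UMIs of a gene scaled to a pool total of 1000000), against 305 to 1024 CPM in the authors' class of mononuclear phagocytes. The F2 pools held 1374740, 7386080, 7407890 and 6007740 UMIs, with a median of 20751.5, 14505, 16642 and 17894.5 UMIs per cell, and the median mitochondrial share was 3.44%, 3.87%, 7.01% and 3.56%. The 18 leukocyte markers summed to 119.3, 227.7, 163.7 and 217.4 CPM in F2, against 27210, 25640, 21770 and 23150 CPM in those phagocytes. Of those markers 3, 2, 0 and 1 stood at 0 in F2, among them Adgre1, Nkg7 and Cd79a in silk at 4 weeks. Mural markers summed to 162.9, 222.0, 111.1 and 77.9 CPM, mostly Cspg4 and Des, while Rgs5 stayed at or below 3.66 CPM and Myh11 at or below 0.81 CPM. The barcodes of 9 F2 cells also occurred in another granuloma library, and no barcode was shared by F2 cells of 2 libraries.

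Col12a1, which encodes a fibril-associated collagen (chr9:79598991-79718831, minus strand, GENCODE M21, GRCm38), is the gene by which F2 is labelled. Its level in F2 was 183, 830.1, 324 and 798 CPM, against 81.3, 526, 122 and 194 CPM in F1. F3 had 905, 289 and 413 CPM and F4 435, 163 and 288 CPM in silk at 2 weeks, sponge at 4 weeks and sponge at 2 weeks. Col12a1 was thus higher in F2 than in F1 in 4 of 4 libraries, but in silk at 2 weeks F3 exceeded F2, so Col12a1 alone does not set F2 apart. With each cell thinned to 3184 UMIs, 31.0%, 80.9%, 55.6% and 73.5% of F2 cells held a Col12a1 UMI. The main fibrillar collagen chain Col1a1 was no higher in F2 (17230, 18100, 18080 and 21540 CPM) than in F1 (30750, 21880, 23400 and 21750 CPM).

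The subclusters were made from these same genes, so differences between F2 and the other subclusters describe the partition and were not tested. A gene counts as higher or lower where it differed at least 2-fold in every library compared, on the scale log2((CPM + 10)/(CPM + 10)), and its higher pool had to reach 50 UMIs and 50 CPM. Of 1026 genes, 0 were higher (0.0%) and 0 lower (0.0%) in F2 than in all of F1, F3 and F4 in all 4 libraries. The highest by their smallest change were Mmp13 (0.84), a collagenase, Kctd11 (0.61), the cationic amino acid transporter Slc7a2 (0.58) and the membrane-anchored semaphorin Sema7a (0.58). Hmgcs1 (0.49), an early enzyme of cholesterol synthesis, was also near the top. This comparison includes F3 and F4 of silk at 4 weeks, which hold only 8 and 19 cells. The other subclusters are therefore taken in turn below, F3 and F4 without that library, a choice made after the cell numbers were seen.

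Across 4538 genes, the F2 profile ranked closest to F3 in silk at 2 weeks and sponge at 4 weeks. Spearman's rho in silk at 2 weeks, sponge at 4 weeks and sponge at 2 weeks was 0.893, 0.887 and 0.878 with F3, and 0.844, 0.776 and 0.835 with F4. With F1 it was 0.740, 0.877, 0.857 and 0.924 over the 4 libraries, so in sponge at 2 weeks F1 was the closest. These are correlations across genes of pools from the same library, given as description.

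Against F1, the largest subcluster, 25 of 2799 genes stood at least 2-fold higher in F2 in all 4 libraries (0.893%) and 66 at least 2-fold lower (2.36%). The higher genes included the ligands Cxcl5, Spp1, Tnfsf11, Inhba and Pdgfa, the contractile genes Acta2, Tpm2 and Actn1, and Tnc. The lists with most members at least 2-fold lower were the progenitor list (10 of 23) and the Col15a1 parenchymal list (7 of 19). The F2 cells were deeper than the F1 cells, whose median was 8055, 9236, 10375 and 14343 UMIs. With every cell thinned to 3184 UMIs the counts were 10 higher and 32 lower, but only 822 genes then passed the filters, against 2799 before.

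**Figure D1:**
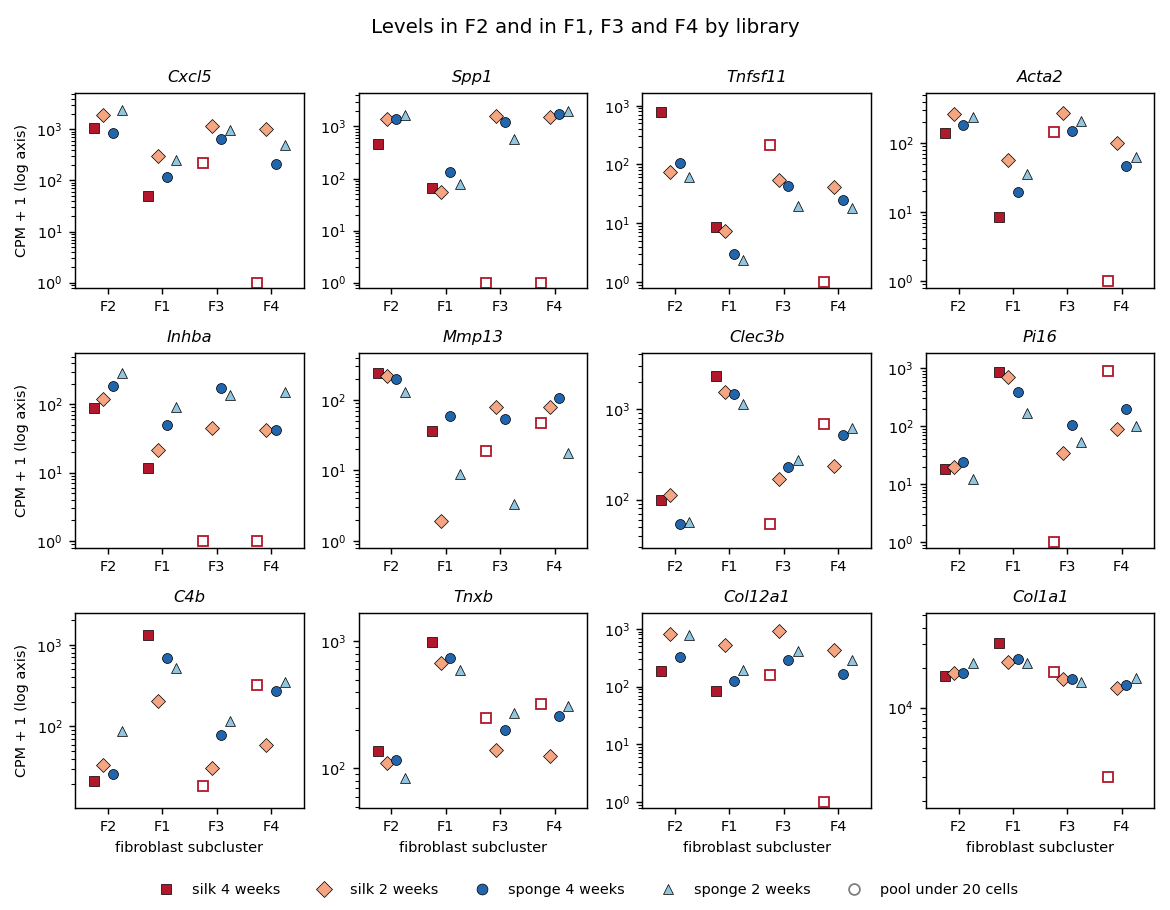
Levels of 12 genes (CPM + 1, log axis) in F2, F1, F3 and F4, with 1 point per library and open points for pools under 20 cells. Cxcl5, Spp1, Tnfsf11 and Acta2 lie higher in F2 than in F1 in every library, Clec3b, Pi16, C4b and Tnxb lie lower, and Col1a1 is no higher in F2.

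Among the ligands, Cxcl5, a chemokine that draws neutrophils through CXCR2 (chr5:90759360-90761624, plus strand), had 1049, 1943, 836 and 2359 CPM in F2, against 47.8, 299.8, 118 and 250.1 CPM in F1. The log2 ratio of F2 to F1 was 4.45, 2.69, 2.82 and 3.24. The lowest F2 library, sponge at 4 weeks, lay above the highest F1 library. Tnfsf11 encodes RANKL, the ligand that drives osteoclast formation (chr14:78277445-78308043, minus strand). It had 794, 73.1, 106 and 60.4 CPM in F2, against 7.54, 6.27, 2.04 and 1.35 CPM in F1, with log2 ratios of 6.64, 3.45, 5.66 and 5.46. Its level in silk at 4 weeks stood far above the other F2 libraries, and F1 was near 0 in all 4. Spp1, which encodes the matrix protein and cytokine osteopontin, had 464, 1401, 1400 and 1685 CPM in F2, against 65.4, 53.7, 134 and 78.6 CPM in F1. Inhba, a subunit of activin A, had 86.6, 119, 186 and 285 CPM in F2, against 10.9, 20.6, 48.2 and 88.9 CPM in F1, with log2 ratios of 2.94, 2.5, 1.95 and 1.68. For Inhba the groups overlap across libraries, since F1 of sponge at 2 weeks exceeded F2 of silk at 4 weeks, but within each library F2 was higher. Pdgfa, a growth factor for fibroblasts, was also among the 25 and had 241, 189.7, 200.2 and 205 CPM in F2, against 16.8, 74.3, 44.7 and 63.6 CPM in F1.

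Of other factors for macrophages, Il34 and Csf1 are the ligands of the CSF1 receptor. Il34 had 136, 32.8, 97.3 and 25.1 CPM in F2, against 17.6, 13.4, 17.1 and 5.55 CPM in F1, so it was higher in F2 in each library. Csf1 had 223, 93.2, 88.7 and 128 CPM in F2, against 185, 108, 123 and 126 CPM in F1, and was lower in F2 in silk at 2 weeks and in sponge at 4 weeks. Tnfrsf11b encodes osteoprotegerin, the decoy receptor that captures RANKL, and had 62.6, 123, 153 and 37.8 CPM in F2, against 11.7, 100.2, 35.4 and 42.4 CPM in F1, so F2 was below F1 in sponge at 2 weeks. Of 26 measured genes of the inflammatory fibroblast list, 2 were at least 2-fold higher in all 4 libraries (Cxcl5 and Tnfsf11) and 0 were at least 2-fold lower, with 6 higher and 7 lower in all 4 at any size. Among 8813 genes measured in the same way, 33.1% were higher and 14.6% lower in all 4. The growth factor list, with 28 measured members, had 3 at least 2-fold higher (Pdgfa, Vegfc and Ereg) and 2 lower, and 5 higher and 9 lower in all 4 at any size. Il34, Csf1 and Tnfrsf11b were chosen after their values were seen.

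The share of cells with a UMI shows how widely the ligands were carried. With every cell thinned to 3184 UMIs, Cxcl5 was seen in 55.2%, 67.0%, 46.6% and 73.8% of F2 cells, against 5.98%, 23.4%, 8.80% and 17.4% of F1 cells. In silk at 2 weeks, sponge at 4 weeks and sponge at 2 weeks, F3 had 57.6%, 38.0% and 51.5%. F4 had 38.5%, 18.3% and 23.9% there. Cxcl5 was thus widely carried in F3 too. Without thinning the F2 shares were 69.0%, 77.5%, 64.4% and 82.8%. In NK and T cells, which should lack it, the thinned shares were 0%, 3.16%, 0% and 1.32%. The median NK or T cell held 2369, 2553, 2526 and 3109.5 UMIs, so thinning kept only their deeper cells. Tnfsf11 was seen in 41.4%, 18.4%, 18.1% and 14.1% of F2 cells after thinning, against 0.855%, 2.13%, 0.765% and 0.376% of F1 cells. In silk at 2 weeks, sponge at 4 weeks and sponge at 2 weeks, F3 had 12.7%, 3.88% and 5.05%. F4 had 8.65%, 4.81% and 4.27% there. NK and T cells, some of which are known to make RANKL, had 22.9%, 8.42%, 18.4% and 4.82%. Spp1 was seen in 20.7%, 51.1%, 51.2% and 58.1% of F2 cells, but also in 10.4%, 25.3%, 24.6% and 31.6% of NK and T cells. The thinned F1 shares of Spp1 lay below those of NK and T cells. The source of the Spp1 UMIs in these cells was not tested.

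**Figure D2:**
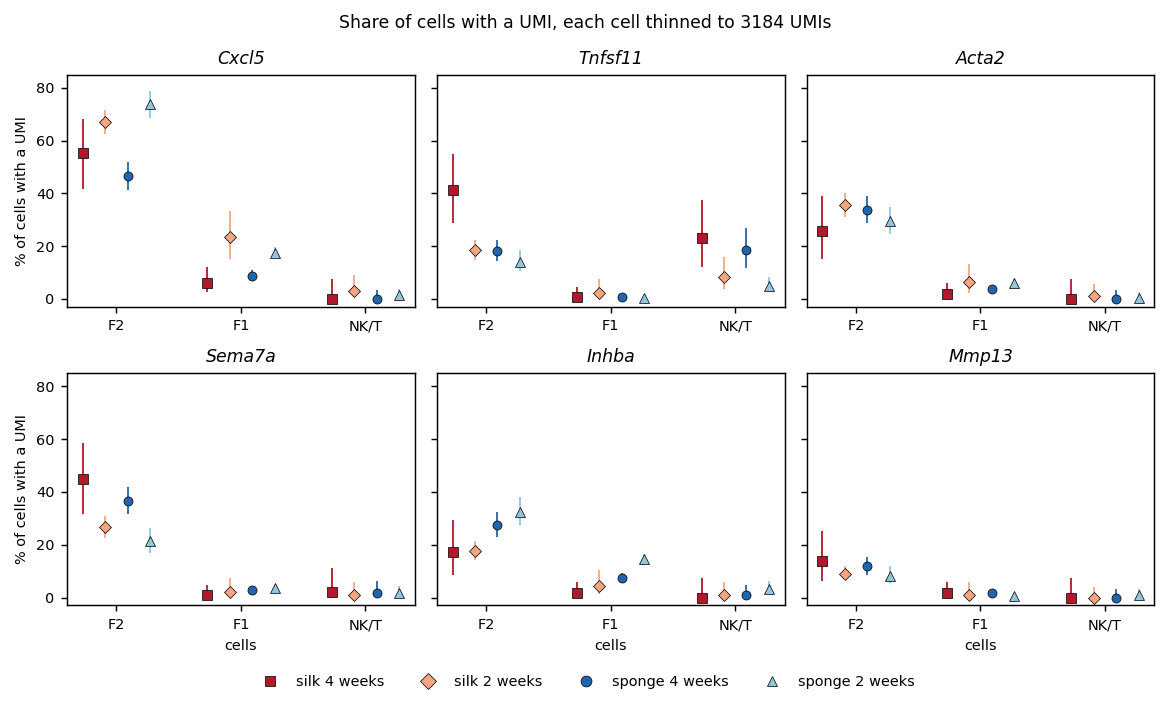
Percent of cells with at least 1 UMI of 6 genes after thinning each cell to 3184 UMIs, for F2, F1 and NK/T cells, with 1 point per library and exact 95% intervals for counting error. Of the cells shown, Cxcl5, Acta2, Sema7a, Inhba and Mmp13 lie highest in F2, with Mmp13 in 13.8% of F2 cells or fewer. Tnfsf11 is also present in NK/T cells. F3 and F4 are not shown.

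Contractile genes were higher in F2 than in F1. Of 19 measured members, 4 were at least 2-fold higher in all 4 libraries and 17 were higher at any size, none lower, and the list's median log2 ratio was 1.29, 0.94, 0.92 and 0.66, against 0.22, 0.05, 0.09 and 0.04 over all genes. Among 8813 genes measured in this comparison, 33.1% were higher and 14.6% lower in all 4 libraries. Acta2, smooth muscle actin (chr19:34241090-34255590, minus strand), had 139, 269, 181 and 236 CPM in F2, against 7.54, 55.5, 18.6 and 34.7 CPM in F1, with log2 ratios of 4.13, 2.27, 3.28 and 2.77. The lowest F2 library lay above the highest F1 library. After thinning, 25.9%, 35.7%, 33.7% and 29.4% of F2 cells held an Acta2 UMI, against 1.71%, 6.38%, 3.70% and 6.09% of F1 cells. Tpm2, a tropomyosin that runs along actin filaments, had 146, 287, 196 and 305 CPM in F2, against 7.54, 92.2, 56 and 115 CPM in F1. Actn1, which cross-links actin, had 419, 427, 459 and 321 CPM in F2, against 52, 154, 126 and 143 CPM in F1. Of the 8 mural cell markers, Cspg4, Des and Notch3 were higher in F2 in each library, and Abcc9 and Kcnj8 were lower in each. Cspg4 had 106, 47, 68.7 and 56.4 CPM in F2, against 3.35, 12.5, 9.53 and 11.2 CPM in F1. Des, desmin, had 23.3, 161, 15.3 and 6.33 CPM in F2, against 4.19, 19.7, 2.33 and 0.965 CPM in F1, with its peak in silk at 2 weeks. Abcc9, a channel subunit of pericytes, had 0, 1.08, 0.54 and 4.49 CPM in F2, against 33.5, 20.6, 36.9 and 29.3 CPM in F1. The defining mural marker Rgs5 was near 0 in F2 as stated above, and the part of mural cells in these values was not tested.

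Among matrix genes, Tnc, the wound-associated glycoprotein tenascin C, had 465, 867, 811 and 1136 CPM in F2, against 8.38, 391, 202 and 419.7 CPM in F1, and Tnn, tenascin W, had 24.7, 387, 93.4 and 181 CPM in F2, against 0.838, 39.4, 14.4 and 43.3 CPM in F1. Tenascin X went the other way: Tnxb had 136, 109, 116 and 82.4 CPM in F2, against 989, 676, 735 and 593 CPM in F1. Among elastic fibre genes 1 of 21 was at least 2-fold higher in F2 in all 4 libraries (Ltbp2) and 4 were at least 2-fold lower (Fbln7, Eln, Ltbp4 and Ltbp1). Eln, elastin itself, had 32.7, 58.5, 52.5 and 27.1 CPM in F2, against 540.4, 188, 215 and 427 CPM in F1. The microfibril gene Fbn1, by contrast, had 1146, 1605, 1137 and 1163 CPM in F2, against 1113, 2079, 1385 and 1620 CPM in F1, and was not lower in every library. Of type VI collagen, a pericellular beaded filament, the chains Col6a1, Col6a2 and Col6a3 were higher in F2 in all 4 libraries without reaching 2-fold in all, while Col6a5 and Col6a6 were lower in all 4. Col6a1 had 4887, 3417, 4366 and 2742 CPM in F2, against 1868, 2197, 1920 and 2046 CPM in F1, and Col6a6, at least 2-fold lower in all 4, had 42.9, 6.77, 10.4 and 4.83 CPM in F2, against 101, 69.8, 71.7 and 39.4 CPM in F1.

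Of 29 measured proteases and inhibitors, 3 were at least 2-fold higher in F2 in all 4 libraries (Mmp13, Mmp9 and Serpine2) and 1 lower (Mmp2), with 8 higher and 11 lower at any size. Over 8813 genes measured in this comparison, 33.1% were higher and 14.6% lower in all 4. Mmp13, interstitial collagenase, had 245, 216, 196 and 128 CPM in F2, against 35.2, 0.895, 58.9 and 7.92 CPM in F1. It was seen in a minority of cells, with a UMI in 13.8%, 8.97%, 11.8% and 8.31% of thinned F2 cells. Among the 25 genes called over all genes, Tgm2, a transglutaminase that cross-links matrix proteins, had 906, 183, 540 and 159.5 CPM in F2, against 84.6, 32.2, 68.1 and 57.6 CPM in F1. Sema7a, a ligand of integrins and plexin C1, had 299, 118, 191 and 80.4 CPM in F2, against 5.87, 8.06, 11 and 14.1 CPM in F1. Tgm2 and Sema7a were higher at 4 weeks than at 2 weeks in both materials. Cryaa, an alpha crystallin best known as a chaperone of the lens, had 769.6, 78.1, 264 and 51.4 CPM in F2, against 6.7, 8.06, 7.2 and 1.59 CPM in F1, with log2 ratios of 6.76, 3.2, 5.19 and 4.99.

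Cholesterol synthesis genes were higher in F2 than in F1 in all 4 libraries for 18 of 19 measured members, 2 of them by at least 2-fold, with 0 lower. The list's median log2 ratio was 1.41, 0.86, 0.54 and 0.58. Hmgcs1, whose promoter is printed above, had 211, 103, 115 and 85.9 CPM in F2, against 58.7, 36.7, 78.5 and 54.8 CPM in F1, with log2 ratios of 1.84, 1.48, 0.55 and 0.65. Sqle, squalene epoxidase, had 68.4, 24.4, 33.1 and 19.3 CPM in F2, against 1.68, 4.48, 7.88 and 5.94 CPM in F1, and Cyp51, lanosterol demethylase, had 202, 48.9, 65.1 and 46.1 CPM in F2, against 21, 16.1, 26.8 and 17.8 CPM in F1. The list was also above F3 and F4, with medians of 0.29, 0.68 and 0.68 against F3 and 0.36, 0.40 and 0.47 against F4 in silk at 2 weeks, sponge at 4 weeks and sponge at 2 weeks, where all genes lay between -0.05 and 0.06. Glycolysis genes were higher than in F1 for 21 of 27 members in all 4 libraries and oxidative phosphorylation genes for 18 of 22, none by 2-fold in all 4. In silk at 2 weeks alone, 11 of 27 glycolysis genes were at least 2-fold higher and 0 lower. Beside these lists, 33.1% of 8813 genes measured in this comparison were higher and 14.6% lower in all 4 libraries.

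**Figure D3:**
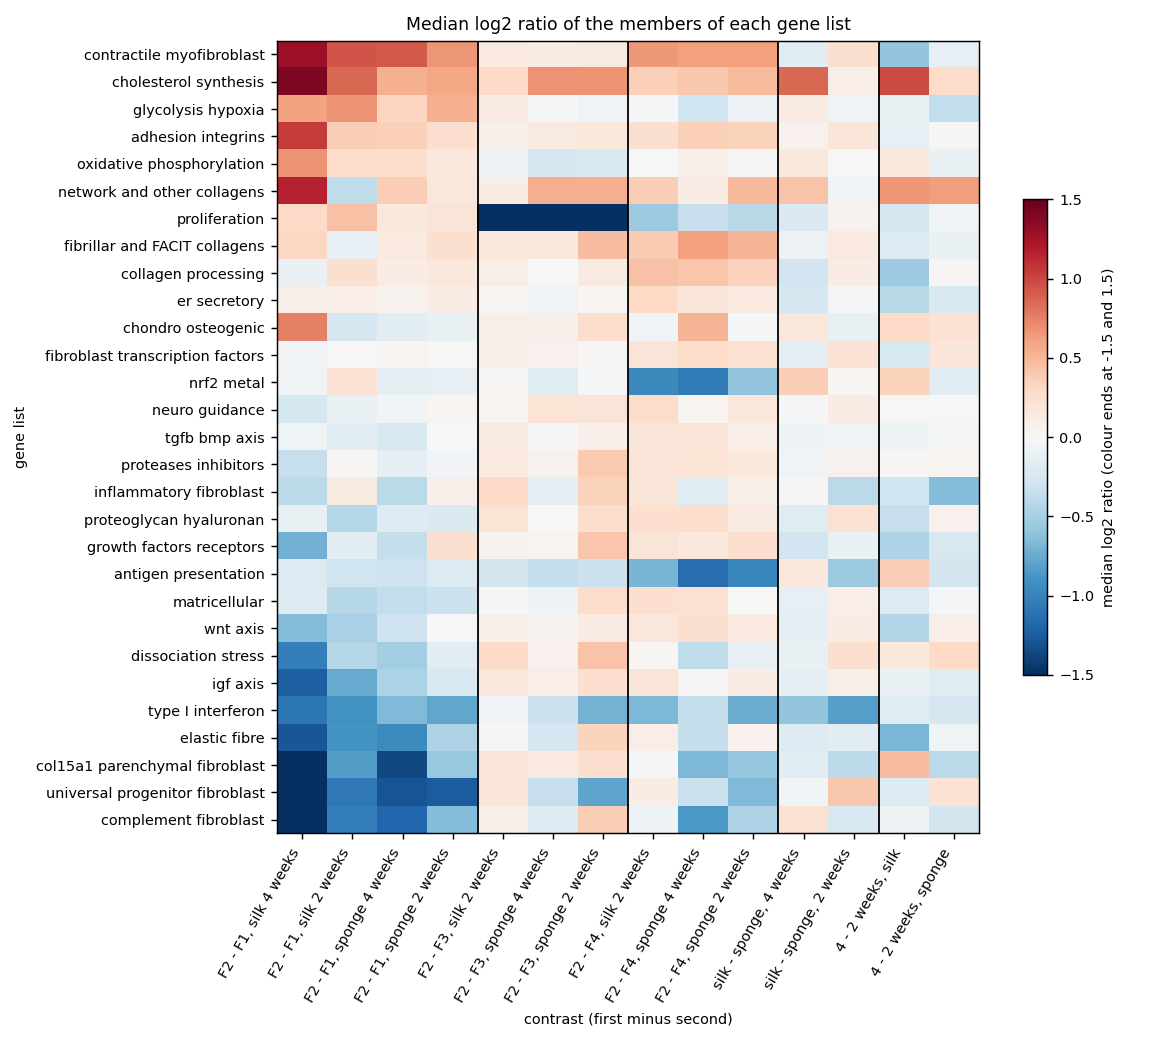
Median log2 ratio of the measured members of 29 gene lists (rows) in each contrast (columns, first named minus second), coloured from -1.5 to 1.5. Contractile and cholesterol lists are above 0 against F1 in all 4 libraries, progenitor, complement and interferon lists are below 0, and proliferation is lowest against F3.

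On the low side against F1 stood the progenitor programme. Of 23 measured members of the universal progenitor list, 10 were at least 2-fold lower in all 4 libraries and 19 lower at any size, against 1 higher. For this and the lists below, the shares over 8813 genes measured were 14.6% lower and 33.1% higher in all 4 libraries. Pi16, a peptidase inhibitor that marks this state, had 17.5, 18.6, 22.8 and 11.3 CPM in F2, against 839.5, 702, 389 and 168 CPM in F1, with log2 ratios of -5.56, -5.24, -4.09 and -3.88. Clec3b, which encodes the plasminogen-binding protein tetranectin, had 97.5, 111, 52.7 and 56.4 CPM in F2, against 2301, 1519, 1461 and 1129 CPM in F1. In both genes every F2 library lay below every F1 library. Complement genes behaved alike, with 4 of 12 at least 2-fold lower and 10 lower at any size. C3, the central component, had 1115, 558, 385 and 642 CPM in F2, against 6539, 2568, 2671 and 1851 CPM in F1. C4b had 20.4, 32.9, 25.5 and 86.4 CPM in F2, against 1328, 204, 693 and 518 CPM in F1, with log2 ratios of -6.0, -2.63, -4.76 and -2.58. The Col15a1 parenchymal list had 7 of 19 members at least 2-fold lower. Interferon-stimulated genes were lower for 12 of 14 members, 2 of them at least 2-fold, with medians of -1.09, -0.91, -0.66 and -0.78. The dissociation stress list, which can rise while tissue is digested, had 14 of 23 members lower in all 4 libraries, with medians of -1.02, -0.42, -0.52 and -0.17. Its part in these differences was not tested.

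Against F3, in silk at 2 weeks, sponge at 4 weeks and sponge at 2 weeks, 3 of 3055 genes stood at least 2-fold higher in F2 (0.0982%) and 118 lower (3.86%). F2 differed from F3 chiefly in genes of cell division. All 24 measured proliferation genes were at least 2-fold lower in F2, with list medians of -3.48, -3.32 and -3.45. Mki67, a marker of cycling cells, had 3.93, 2.16 and 3.5 CPM in F2, against 287, 222 and 301 CPM in F3, with log2 ratios of -6.17, -6.64 and -6.39. Top2a, the topoisomerase that untangles replicated DNA, had 4.06, 2.84 and 7.99 CPM in F2, against 375, 381 and 392 CPM in F3. The 3 higher genes were Mmp13, Ccnd2 and Cryab. Ccnd2, a cyclin of the early cell cycle, had 148, 223 and 201 CPM in F2, against 47.4, 78.4 and 87.1 CPM in F3, with log2 ratios of 1.63, 1.51 and 1.21. Cryab, a small heat shock protein, had 54, 93.1 and 133 CPM in F2, against 21.8, 36.1 and 57.5 CPM in F3. The contractile list differed little, with medians of 0.14, 0.11 and 0.14, and 0 members were at least 2-fold apart in all 3 libraries. Of the ligands, Tnfsf11 and Cxcl5 were higher than in F3 in all 3 libraries, with smallest log2 differences of only 0.39 and 0.33. The leukocyte markers summed to 227.7, 163.7 and 217.4 CPM in F2, against 783.1, 251.6 and 394.3 CPM in F3, and their part was not tested. Without cells holding 3 or more leukocyte UMIs, 1 of 2992 genes was higher.

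Against F4 in the same libraries, 12 of 3028 genes stood at least 2-fold higher in F2 (0.396%) and 160 lower (5.28%). The lower side was led by genes of myeloid cells. Lyz2, a lysozyme of myeloid cells, had 114, 78 and 65.4 CPM in F2, against 4798, 4588 and 2951 CPM in F4, with log2 ratios of -5.39, -5.88 and -5.49. Tyrobp, a signalling adaptor of myeloid receptors, had 8.39, 7.7 and 18.8 CPM in F2, against 497, 539 and 543 CPM in F4. The 18 leukocyte markers summed to 227.7, 163.7 and 217.4 CPM in F2, against 8145, 8348 and 7781 CPM in F4. The median simulated doublet score was 0.0539, 0.0495 and 0.0472 in F2, against 0.1256, 0.1374 and 0.138 in F4, and their part in the lower genes was not tested. Without the 10% of fibroblasts with the highest scores in each library, 59 of 2421 genes were lower. Of 15 antigen presentation genes, 6 were at least 2-fold lower in F2 and all 15 were lower. On the higher side, Crabp2, which carries retinoic acid to its nuclear receptor, had 345, 648 and 519 CPM in F2, against 145, 139 and 160.1 CPM in F4, with log2 ratios of 1.25, 2.22 and 1.7. Acta2 had 269, 181 and 236 CPM in F2, against 101, 46.2 and 61.7 CPM in F4, and 19 of 21 contractile genes were higher. Among 10802 genes measured in this comparison, 32.5% were higher and 24.2% lower in all 3 libraries.

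The next comparison sets silk against sponge within F2 at matched times. Only 3 of 3050 genes stood at least 2-fold higher in silk at both times (0.0984%) and 6 lower (0.197%) by this rule. Single times gave more. At 4 weeks 116 of 3519 genes were higher (3.3%) and 52 lower (1.48%), and at 2 weeks 38 of 3292 were higher (1.15%) and 52 lower (1.58%). The 4-week contrast rests on 58 F2 cells in silk.

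The 3 genes higher in silk were Enpp2, Stra6 and Itih5. Enpp2, autotaxin, which makes the lipid mediator lysophosphatidic acid, had 614 CPM in silk and 186 CPM in sponge at 4 weeks, and 215 CPM in silk and 46.3 CPM in sponge at 2 weeks. Its log2 ratio of silk to sponge was 1.73 (1.6 to 1.85) for 4 weeks and 2.21 (2.03 to 2.4) for 2 weeks. Stra6, a membrane receptor for retinol-binding protein, had 444 CPM in silk and 123 CPM in sponge at 4 weeks, and 78.3 CPM in silk and 32 CPM in sponge at 2 weeks, with ratios of 1.85 (1.7 to 2.0) for 4 weeks and 1.29 (1.05 to 1.54) for 2 weeks. Itih5, of the hyaluronan-binding inter-alpha-trypsin inhibitor family, had 669.9 CPM in silk and 211 CPM in sponge at 4 weeks, and 131 CPM in silk and 60.4 CPM in sponge at 2 weeks. For all 3 genes silk exceeded sponge at each time, but sponge at 4 weeks exceeded silk at 2 weeks for Stra6 and Itih5. None of the 3 was among the 13 of 2859 genes higher in silk within F1 (0.455%). At any size, 1 of the 3 was higher in silk within F1 at both times, against 28.1% of 11339 genes measured there.

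The 6 genes lower in silk were Il1rl1, Plac8, Slpi, Cfb, Cxcl2 and Inhba, several of which are known from inflamed tissue. Il1rl1, which encodes ST2, the receptor for interleukin 33, had 19.6 CPM in silk and 171 CPM in sponge at 4 weeks, and 111 CPM in silk and 357 CPM in sponge at 2 weeks. Its log2 ratio was -3.1 (-3.73 to -2.57) for 4 weeks and -1.69 (-1.81 to -1.57) for 2 weeks. Slpi, a secreted inhibitor of leukocyte proteases, had 5.82 CPM in silk and 66.3 CPM in sponge at 4 weeks, and 52.4 CPM in silk and 158 CPM in sponge at 2 weeks, with ratios of -3.42 (-4.73 to -2.52) for 4 weeks and -1.59 (-1.76 to -1.42) for 2 weeks. Cfb, complement factor B, had 45.1 CPM in silk and 115 CPM in sponge at 4 weeks, and 153 CPM in silk and 368 CPM in sponge at 2 weeks. The neutrophil chemokine Cxcl2 had 64 CPM in silk and 174 CPM in sponge at 4 weeks, and 227 CPM in silk and 507 CPM in sponge at 2 weeks. In every one of these pairs silk lay below sponge at the same time. Inhba had 86.6 CPM in silk and 186 CPM in sponge at 4 weeks, and 119 CPM in silk and 285 CPM in sponge at 2 weeks, with ratios of -1.1 (-1.39 to -0.83) for 4 weeks and -1.26 (-1.38 to -1.15) for 2 weeks. Of the 11 genes lower in silk within F1 (0.385%), 2 were among these 6, Cxcl2 and Il1rl1. At any size, 3 of the 6 were lower in silk within F1 at both times, against 24.5% of 11339 genes measured there.

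Interferon-stimulated genes were lower in silk than in sponge within F2. Of 20 measured members, 19 were lower at both times, 3 of them at least 2-fold, and none was higher at both. Over 10893 genes measured in the same way, 34.8% were higher and 16.2% lower at both times. The list's median log2 ratio was -0.59 at 4 weeks and -0.82 at 2 weeks, while all genes lay at 0.01 and 0.08. Isg15, a ubiquitin-like protein strongly induced by interferon (chr4:156199424-156200818, minus strand), had 5.09 CPM in silk and 43.9 CPM in sponge at 4 weeks, and 15.8 CPM in silk and 82.1 CPM in sponge at 2 weeks, with ratios of -3.01 (-4.43 to -2.05) for 4 weeks and -2.37 (-2.68 to -2.08) for 2 weeks. Irf7, a transcription factor that amplifies the interferon response, had 3.64 CPM in silk and 22.3 CPM in sponge at 4 weeks, and 8.67 CPM in silk and 34.5 CPM in sponge at 2 weeks, with ratios of -2.48 (-4.26 to -1.36) for 4 weeks and -1.98 (-2.42 to -1.58) for 2 weeks. Ifit1, which binds foreign RNA, had 1.46 CPM in silk and 24.2 CPM in sponge at 4 weeks, and 5.96 CPM in silk and 25.6 CPM in sponge at 2 weeks, with ratios of -3.74 (-7.11 to -2.18) for 4 weeks and -2.09 (-2.62 to -1.61) for 2 weeks. The silk values at 4 weeks rest on 7 UMIs for Isg15, 5 for Irf7 and 2 for Ifit1. All 3 genes had their lowest level in silk at 4 weeks and their highest in sponge at 2 weeks. Ifit3, of the same family as Ifit1, had 0.727 CPM in silk and 6.35 CPM in sponge at 4 weeks, and 1.63 CPM in silk and 3.5 CPM in sponge at 2 weeks. Its silk value at 4 weeks rests on fewer UMIs than that of Ifit1. The promoters of Isg15, Ifit1 and Ifit3 printed above each hold the interferon motif more than once, while the Irf7 promoter held 0 matches. The exception in direction was Bst2, tetherin, with 199 CPM in silk and 135 CPM in sponge at 4 weeks, and 87.7 CPM in silk and 267 CPM in sponge at 2 weeks. The Bst2 promoter held 2 matches. The same direction was measured in F1, where 19 of 22 members were lower at both times and the medians were -0.45 and -0.73, against 24.5% lower at both times over 11339 genes. Isg15 in F1 had 52.8 CPM in silk and 105 CPM in sponge at 4 weeks, and 43.9 CPM in silk and 171 CPM in sponge at 2 weeks. The pattern is therefore not shown to be particular to F2. The leukocyte markers of F2 summed to 119.3 CPM in silk and 163.7 CPM in sponge at 4 weeks, and to 227.7 CPM in silk and 217.4 CPM in sponge at 2 weeks, and their part in these ratios was not tested.

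**Figure D4:**
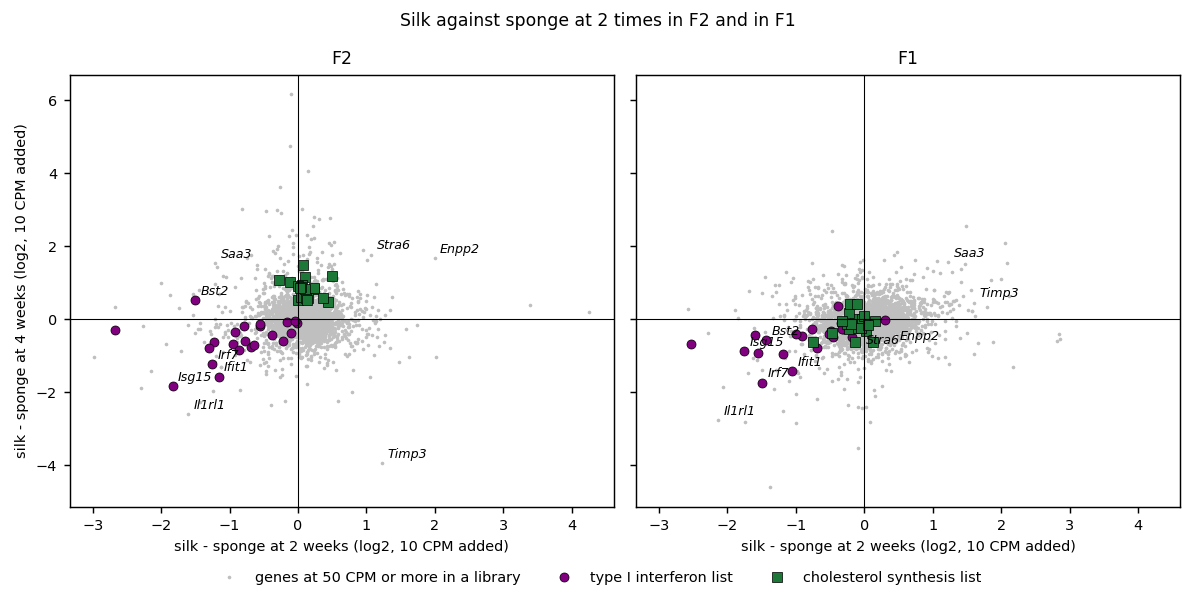
Each point is a gene, placed by its silk minus sponge log2 ratio at 2 weeks (x axis) and at 4 weeks (y axis, 10 CPM added to each level) in F2 (left) and F1 (right). Interferon genes (purple circles) lie mostly below 0 at both times in both subclusters, and cholesterol genes (green squares) lie above 0 at 4 weeks in F2.

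Cholesterol synthesis genes were higher in silk than in sponge within F2, mainly at 4 weeks. Of 19 measured members 16 were higher at both times and 0 lower at both, none at least 2-fold at both. Over 10893 genes measured in F2, 34.8% were higher and 16.2% lower at both times. The median log2 ratio was 0.86 at 4 weeks and 0.10 at 2 weeks, where all genes lay at 0.01 and 0.08. At 2 weeks the list thus lay near all genes, and the 4-week contrast rests on 58 F2 cells in silk. Hmgcs1 had 211 CPM in silk and 115 CPM in sponge at 4 weeks, and 103 CPM in silk and 85.9 CPM in sponge at 2 weeks, with ratios of 0.88 (0.68 to 1.07) for 4 weeks and 0.26 (0.1 to 0.43) for 2 weeks. Sqle had 68.4 CPM in silk and 33.1 CPM in sponge at 4 weeks, and 24.4 CPM in silk and 19.3 CPM in sponge at 2 weeks, with ratios of 1.05 (0.69 to 1.4) for 4 weeks and 0.33 (-0.01 to 0.69) for 2 weeks. In F1, 0 of 18 members were higher at both times and 11 were lower, with medians of -0.14 and -0.14. Of 11339 genes measured in F1, 28.1% were higher and 24.5% lower at both times. The difference between F2 and F1 was not tested. The F2 cells of silk at 4 weeks were also the deepest, with a median of 20751.5 UMIs.

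The last comparison is time, 4 weeks against 2 weeks within each material. In F2, 28 of 3183 genes stood at least 2-fold higher at 4 weeks in both materials (0.88%) and 40 lower (1.26%). Silk alone gave 193 higher (5.31%) and 152 lower (4.18%) of 3635, and sponge alone 58 higher (1.75%) and 91 lower (2.75%) of 3309. Of the 28 genes, 1 was among the 14 of 2906 higher at 4 weeks in F1 (0.482%), and of the 40 genes, 8 were among the 18 lower in F1 (0.619%). At any size, 15 of the 28 and 22 of the 40 went the same way in F1 in both materials. Over 8550 genes measured in F1, 25.4% were higher and 35.9% lower at 4 weeks in both materials. The differences within F2 are therefore not shown to be particular to F2.

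Among the higher genes, Cryaa had 769.6 CPM at 4 weeks and 78.1 CPM at 2 weeks in silk, and 264 CPM at 4 weeks and 51.4 CPM at 2 weeks in sponge, with log2 ratios of 4 to 2 weeks of 3.3 (3.15 to 3.45) in silk and 2.36 (2.19 to 2.54) in sponge. Pthlh, parathyroid hormone-related protein, known to raise RANKL in bone cells, had 663 CPM at 4 weeks and 35.6 CPM at 2 weeks in silk, and 128 CPM at 4 weeks and 40 CPM at 2 weeks in sponge, with ratios of 4.22 (4.02 to 4.42) in silk and 1.68 (1.47 to 1.89) in sponge. Il34 had 136 CPM at 4 weeks and 32.8 CPM at 2 weeks in silk, and 97.3 CPM at 4 weeks and 25.1 CPM at 2 weeks in sponge, with ratios of 2.06 (1.77 to 2.34) in silk and 1.95 (1.7 to 2.22) in sponge. In each of these genes both 4-week libraries lay above both 2-week libraries. Tgm2 had 906 CPM at 4 weeks and 183 CPM at 2 weeks in silk, and 540 CPM at 4 weeks and 159.5 CPM at 2 weeks in sponge. Stra6 had 444 CPM at 4 weeks and 78.3 CPM at 2 weeks in silk, and 123 CPM at 4 weeks and 32 CPM at 2 weeks in sponge, and Enpp2 614 CPM at 4 weeks and 215 CPM at 2 weeks in silk, and 186 CPM at 4 weeks and 46.3 CPM at 2 weeks in sponge. Both of these therefore differed by time as well as by material. Col15a1, a basement membrane zone collagen, had 1215 CPM at 4 weeks and 249 CPM at 2 weeks in silk, and 877 CPM at 4 weeks and 372 CPM at 2 weeks in sponge, with ratios of 2.29 (2.19 to 2.39) in silk and 1.24 (1.17 to 1.31) in sponge. Mgp, an inhibitor of calcification, had 1698 CPM at 4 weeks and 157 CPM at 2 weeks in silk, and 458 CPM at 4 weeks and 206 CPM at 2 weeks in sponge, and Igfbp5, an insulin-like growth factor binding protein, had 753 CPM at 4 weeks and 273 CPM at 2 weeks in silk, and 762 CPM at 4 weeks and 196 CPM at 2 weeks in sponge. Tnfsf11 had 794 CPM at 4 weeks and 73.1 CPM at 2 weeks in silk, and 106 CPM at 4 weeks and 60.4 CPM at 2 weeks in sponge, higher at 4 weeks in both materials but under 2-fold in sponge on the scale with 10 CPM added.

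**Figure D5:**
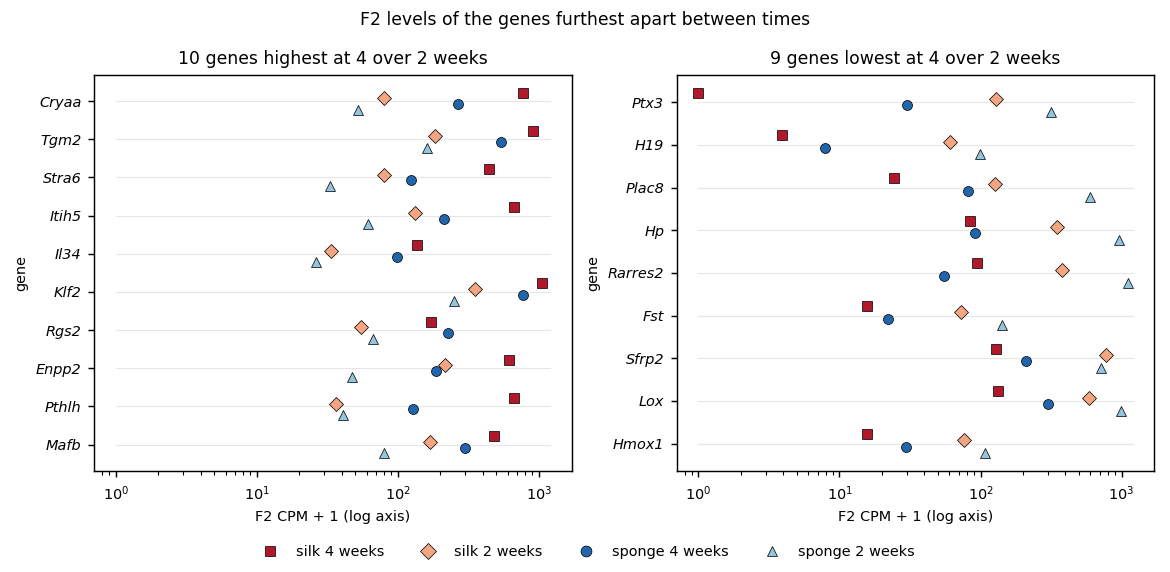
F2 levels (CPM + 1, log axis) of 10 genes highest (left) and 9 genes among the lowest (right) at 4 over 2 weeks, with 1 point per library. The 4-week libraries lie right of the 2-week libraries of the same material on the left panel and left of them on the right panel.

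Among the lower genes, Ptx3, pentraxin 3, a soluble pattern recognition protein made in inflammation, had 0 CPM at 4 weeks and 128 CPM at 2 weeks in silk, and 28.9 CPM at 4 weeks and 316 CPM at 2 weeks in sponge. With 0 UMIs in silk at 4 weeks, the limit of 3 counts is 2.182 CPM, and Ptx3 was at least 58.5-fold lower there than in silk at 2 weeks. Sfrp2, a secreted modulator of Wnt signalling, had 129 CPM at 4 weeks and 777 CPM at 2 weeks in silk, and 208 CPM at 4 weeks and 711 CPM at 2 weeks in sponge, with ratios of -2.59 (-2.82 to -2.38) in silk and -1.77 (-1.86 to -1.69) in sponge. Lox, lysyl oxidase, which starts collagen and elastin cross-links, had 132 CPM at 4 weeks and 588 CPM at 2 weeks in silk, and 299 CPM at 4 weeks and 997 CPM at 2 weeks in sponge, with ratios of -2.15 (-2.37 to -1.94) in silk and -1.74 (-1.81 to -1.67) in sponge. Both 4-week libraries lay below both 2-week libraries for these 3 genes. Col12a1 was among the 40, with 183 CPM at 4 weeks and 830.1 CPM at 2 weeks in silk, and 324 CPM at 4 weeks and 798 CPM at 2 weeks in sponge and ratios of -2.18 (-2.37 to -2.0) in silk and -1.3 (-1.37 to -1.23) in sponge, so the gene that labels F2 was itself lower at the later time. F1 went the same way, with 81.3 CPM at 4 weeks and 526 CPM at 2 weeks in silk, and 122 CPM at 4 weeks and 194 CPM at 2 weeks in sponge. Il6, a cytokine of the acute phase, had 29.8 CPM at 4 weeks and 139 CPM at 2 weeks in silk, and 58.2 CPM at 4 weeks and 147 CPM at 2 weeks in sponge. Cxcl12, a chemokine that retains leukocytes and stem cells, had 223 CPM at 4 weeks and 512 CPM at 2 weeks in silk, and 293 CPM at 4 weeks and 1479 CPM at 2 weeks in sponge. Thbs2, a matricellular thrombospondin, had 72 CPM at 4 weeks and 387 CPM at 2 weeks in silk, and 148 CPM at 4 weeks and 327 CPM at 2 weeks in sponge.

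By list, 6 of 28 inflammatory fibroblast genes were at least 2-fold lower at 4 weeks in both materials and 0 higher, with 16 lower and 5 higher at any size. Among all 10998 genes measured, 35.3% were higher and 25.8% lower in both. Elastic fibre genes had 4 of 21 members at least 2-fold lower and 1 (Mgp) higher. Genes of the secretory pathway were lower for 19 of 28 members and higher for 2, with medians of -0.42 in silk and -0.22 in sponge. Contractile genes were lower for 11 of 21 members and higher for 1, none by 2-fold in both materials. In F1, 19 of 28 secretory genes were lower and 3 higher, and 17 of 20 contractile genes were lower and 0 higher. Neither change is therefore shown to be particular to F2. Cholesterol synthesis genes were higher at 4 weeks in both materials for 17 of 19 members, with medians of 0.98 in silk and 0.27 in sponge. In F1 they were higher for 9 of 10, against 25.4% of all genes measured in F1. Network and other collagens were higher at 4 weeks in both materials for 9 of 14 members, 1 of them at least 2-fold (Col15a1), and lower for 1, with medians of 0.65 in silk and 0.63 in sponge. The 8 genes at least 2-fold lower in both F2 and F1 included Cxcl2, Il1rl1, Hspb1, Lars2, Gm10076, Gm42418 and AY036118. Counts of Lars2, Gm42418 and AY036118 are known to pick up ribosomal RNA. Gm42418 had 2542 CPM at 4 weeks and 8417 CPM at 2 weeks in silk, and 4125 CPM at 4 weeks and 9253 CPM at 2 weeks in sponge in F2, and 3700 CPM at 4 weeks and 10950 CPM at 2 weeks in silk, and 4246 CPM at 4 weeks and 9278 CPM at 2 weeks in sponge in F1. The median mitochondrial share of F2 cells was 3.44% at 4 weeks and 3.87% at 2 weeks in silk, and 7.01% at 4 weeks and 3.56% at 2 weeks in sponge. Sqle between materials and Gm42418 were chosen after their values were seen. Whether library quality had a part in the time differences was not tested.

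F2 cells also differed among themselves. With every cell thinned to 3184 UMIs, the variance of a gene's UMIs over cells divided by its mean had a median of 1.0, 1.06, 1.06 and 1.06 over 5292 genes, where 1 is counting noise alone, and 110 genes reached at least 2 in all 4 libraries. The nuclear RNA Malat1 had the highest ratio, with a smallest value over the libraries of 35.6. It is abundant, with a mean of 94.6, 37.0, 50.2 and 51.5 UMIs per thinned cell, and the ratio is not scaled for a gene's level. Saa3, an acute-phase protein, followed at 32.6 and Spp1 at 19.7. Next came Col3a1 at 17.0, Col1a1 at 12.8, Col1a2 at 10.7 and Crip1 at 10.2. Cxcl5 reached 9.82, the stromelysin Mmp3 8.48 and Mmp13 5.17. Spp1, Cxcl5 and Mmp13 were among the 25 higher in F2 than in F1.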

How the data were processed

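The authors deposited raw UMI counts per gene and cell together with a table of cells that gives each cell's library, class, fibroblast subcluster and percent of mitochondrial UMIs. Cell Ranger 3.0.0, Seurat 3.0 and the build mm10 are named, without roles, per the submitters' processing notes. How cells were filtered upstream is not given in the sources used here. In each of the 41191 cells the deposited counts summed to the deposited total. The table was read with scanpy 1.11.5, and no deposited column was left without a sample.

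Counts were summed over the cells of a subcluster in a library and divided by the sum to give CPM. Log2 ratios have 0.5 counts added and conditional binomial 95% intervals, shares have exact Clopper-Pearson intervals, and a count of 0 has a limit of 3 counts. All cover counting error only. Genes were counted as higher or lower at 2-fold with 10 CPM added, from 50 UMIs and 50 CPM in the higher pool. The procedure was tested on simulated data. A list's median and its counts of members cover members with at least 20 UMIs over both pools, with no CPM floor. Pools under 20 cells entered no pairwise comparison. The doublet caller marked 0.32% of the cells of silk at 4 weeks and none elsewhere, so it did not work as a caller, and only its scores were used. Gene positions are from GENCODE M21. The members and lists were chosen with earlier results of these data known. Named genes are the extremes of each comparison by smallest change, up to 4 members of each list in each direction and the fibroblast markers, with exceptions named where they stand. Cluster sizes were not compared between libraries, since the genes that define clusters differ between them. Alternatives were another offset, another scaling, thinning, means over cells, no filter, and leaving out libraries, cells with high doublet scores or cells with leukocyte UMIs. Some genes that the rule names are not reported here.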

Additional observations from a re-analysis of the deposited data

Results flagged for a closer look

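The 10 genes below are the 5 largest of opposite direction for material and the 5 largest for time. Their number was set beforehand and is not a count of all such genes. In each, F2 moved in opposite directions under the same contrast, by at least 0.98 on the log2 scale each way. In every case there was 1 library per group, and the difference was not tested.

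Between silk and sponge, Timp3, an inhibitor of metalloproteases held in the matrix, had 17.5 CPM in silk and 414 CPM in sponge at 4 weeks, and 658 CPM in silk and 277 CPM in sponge at 2 weeks, with log2 ratios of -4.54 at 4 weeks and 1.25 at 2 weeks. The acute-phase protein Saa3 had 1684 CPM in silk and 572 CPM in sponge at 4 weeks, and 2922 CPM in silk and 6758 CPM in sponge at 2 weeks, with log2 ratios of 1.56 at 4 weeks and -1.21 at 2 weeks. The matrix protein Spon2 had 976 CPM in silk and 359 CPM in sponge at 4 weeks, and 107 CPM in silk and 255 CPM in sponge at 2 weeks, with log2 ratios of 1.44 at 4 weeks and -1.26 at 2 weeks. Tnfrsf11b, the decoy receptor for RANKL, had 62.6 CPM in silk and 153 CPM in sponge at 4 weeks, and 123 CPM in silk and 37.8 CPM in sponge at 2 weeks, with log2 ratios of -1.28 at 4 weeks and 1.70 at 2 weeks. The stress-induced regulator Nupr1 had 3793 CPM in silk and 1668 CPM in sponge at 4 weeks, and 489.6 CPM in silk and 1056 CPM in sponge at 2 weeks, with log2 ratios of 1.19 at 4 weeks and -1.11 at 2 weeks. For all 5 genes, 1 of the values rests on the 58 F2 cells of silk at 4 weeks. After thinning, only 10.3% of these cells held a Saa3 UMI, with a variance over mean of 156.3, so few cells carry that value.

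Between 4 and 2 weeks, Brinp3 had 29.1 CPM at 4 weeks and 106 CPM at 2 weeks in silk, and 146 CPM at 4 weeks and 57.1 CPM at 2 weeks in sponge, with log2 ratios of -1.85 in silk and 1.35 in sponge. Mmp3, stromelysin 1, had 594 CPM at 4 weeks and 264 CPM at 2 weeks in silk, and 178 CPM at 4 weeks and 449 CPM at 2 weeks in sponge, with log2 ratios of 1.17 in silk and -1.33 in sponge. In silk at 4 weeks, 22.4% of thinned F2 cells held an Mmp3 UMI, with a variance over mean of 26.4. The matricellular protein Ccn1 had 199 CPM at 4 weeks and 451 CPM at 2 weeks in silk, and 535 CPM at 4 weeks and 255 CPM at 2 weeks in sponge, with log2 ratios of -1.18 in silk and 1.07 in sponge. The protease-activated receptor F2rl1 had 93.8 CPM at 4 weeks and 198 CPM at 2 weeks in silk, and 195 CPM at 4 weeks and 86.2 CPM at 2 weeks in sponge, with log2 ratios of -1.07 in silk and 1.18 in sponge. Bst2, the exception among the interferon genes, had 199 CPM at 4 weeks and 87.7 CPM at 2 weeks in silk, and 135 CPM at 4 weeks and 267 CPM at 2 weeks in sponge, with log2 ratios of 1.18 in silk and -0.99 in sponge.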

How the results depend on the processing

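No paired analysis was possible because no result comes from a test: each combination of material and time has 1 library, and the subclusters, which do share libraries, were defined from the genes compared. No direction reversed under any alternative run for a result called at 2-fold. Sizes were less stable. Of 144 smallest changes of named genes, 107 were marked as moved with an offset of 50 CPM, 92 after thinning and 70 with means over cells. Median-of-ratios scaling moved 61, and leaving out the highest doublet scores moved 58. Of 406 list medians, 57 moved with that offset, 50 after thinning and 28 without the highest doublet scores. The counts of genes at 2-fold moved by more than 1.5 times in the following settings. Higher in F2 than in all 3 others (0) became 1 with means over cells and 0 to 3 without 1 library. Higher in F2 than in F1 (25) became 12 with an offset of 50 CPM, 10 after thinning, 48 with no filter, and 27 to 56 without 1 library. Lower (66) became 32, 32 and 102 under the same first 3 settings and 68 to 99 without 1 library. Higher than in F3 (3) became 1 with the offset of 50, 1 with means over cells, 1 without cells holding leukocyte UMIs, and 3 to 11 without 1 library. Lower (118) became 41 after thinning and 261 with no filter, and was 133 to 137 without 1 library. Higher than in F4 (12) became 4 with the offset of 50 and 17 to 25 without 1 library. Lower (160) became 59 without the highest doublet scores, 74 after thinning and 344 with no filter, and was 176 to 207 without 1 library. Higher in silk than in sponge (3) became 1 with the offset of 50, 1 with median-of-ratios scaling and 38 without silk at 4 weeks. Lower (6) became 2 with the offset of 50, 15 with no filter and 52 without silk at 4 weeks. Higher at 4 weeks (28) became 12 with the offset of 50, 16 after thinning and 58 without silk at 4 weeks. Lower (40) became 20 with that offset, 64 with no filter and 91 without silk at 4 weeks. The number of genes tested also changed. Thinning left 822 against F1, 1771 against F3, 1829 against F4 and 1977 for time. Without the highest doublet scores 2421 were tested against F4, and with no filter 21617 in each comparison. Fewer contrasts to pass raise the counts without a library, and the other causes were not tested. Leaving out silk at 4 weeks and the comparisons with single subclusters were chosen after seeing the data. The leukocyte-free setting was not run for F4, which keeps 0, 0, 15 and 2 cells. The 58 cells of silk at 4 weeks limit every result that rests on them.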

Other observations

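Some growth factors and receptors of F2 that the text above does not describe are given as values, chosen after they were seen. Tgfb1, the main activator of myofibroblasts, had 244, 91.1, 130.1 and 69.9 CPM in F2, against 28.5, 47.4, 47.2 and 42.4 CPM in F1. Csf2, a growth factor of granulocytes and macrophages, had 64.7, 44.7, 46.8 and 29.8 CPM in F2, against 0, 13.4, 8.17 and 19.1 CPM in F1. Both were higher in F2 in each of the 4 libraries. Itga5, a chain of the fibronectin receptor, had 168, 249, 245 and 246 CPM in F2, against 58.7, 111, 133 and 176 CPM in F1, likewise higher in each library. The syndecan Sdc1, 1 of the 25 genes at least 2-fold higher in F2 than in F1, had 193, 379, 382 and 221 CPM in F2, against 73.7, 97.6, 76.5 and 87 CPM in F1. Vegfa, the angiogenic factor, had 48.7, 80.3, 64.1 and 105 CPM in F2, against 145, 60.9, 90.1 and 74.5 CPM in F1, and its order changed between libraries.

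Thbs4, a thrombospondin of tendon and wounded muscle, had 1487, 662, 811 and 544 CPM in F2, against 268, 712, 627 and 667 CPM in F1, while the other tendon markers Scx, Tnmd and Comp stayed near 0 in F2. The summed tendon list of F2, 1490, 676.5, 815.2 and 564.3 CPM, was nearly all Thbs4. Postn, periostin, had 864, 2145, 1483 and 1649 CPM in F2, against 1273, 3808, 2264 and 2610 CPM in F1, lower in F2 in each library.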
